A study of Mus musculus with 2 samples.

Results

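The genes described here encode the proteins of the cytosolic ribosome. They were taken as every gene of the expression table whose identifier maps to a protein-coding symbol starting with Rpl, for the large subunit, or Rps, for the small subunit, leaving out the Rps6k kinases, Rps19bp1 and names with -ps. The rule, which uses no measured value, found 85 of the 34745 genes in the table, 52 of the large and 33 of the small subunit.

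RNA was sequenced from primary macrophages grown out of the bone marrow of C57BL/6 mice. The cells had been given an antisense oligonucleotide (ASO) by transfection and had received LPS, a component of the bacterial cell wall to which macrophages respond through TLR4. The AclyE14-ASO, named for Acly, was given to the cells of 1 library, and the Control-ASO to the cells of the other. LPS was thus common to both groups, and no library without LPS or without an ASO is described. The doses and times of LPS and of the ASOs, and how many mice gave the marrow, are not stated.

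Most of these proteins are present as a single copy in each ribosome, so a cell has to make them in nearly equal amounts, and their mRNAs are among the most abundant of any cell. Many of these mRNAs begin with a C followed by a run of pyrimidines, the terminal oligopyrimidine (TOP) tract, through which mTOR and the RNA-binding protein LARP1 control their translation. Ribosomal proteins are also known for their many processed pseudogenes, copies of the spliced mRNA that were inserted elsewhere in the genome and whose reads are hard to tell from those of the gene.

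The libraries held 12751076 gene counts with the AclyE14-ASO and 14215397 with the Control-ASO. With 1 library per group no difference has a replicate check, and culture-to-culture variation cannot be told apart from an effect of the ASO. Levels are the authors' FPKM (fragments scaled to gene length and library total). Log2 ratios set the AclyE14-ASO library over the Control-ASO library after adding 1 FPKM to each, which understates the change of low genes. Count ratios are per library total and carry exact 95% intervals for counting error only. Acly itself, the gene for ATP-citrate lyase, had 768 counts (7.35 FPKM) in the AclyE14-ASO library and 1549 counts (13.3 FPKM) in the Control-ASO library. Of 10 macrophage markers all 10 reached 1 FPKM, with summed levels of 15470 FPKM with the AclyE14-ASO and 12187 FPKM with the Control-ASO. Lyz2 made up most of these sums, at 12276 FPKM with the AclyE14-ASO and 9798 FPKM with the Control-ASO. The markers were mixed in direction, with 6 higher and 4 lower with the AclyE14-ASO (Cd68, Csf1r, Adgre1 and Spi1). Of 10 fibroblast and stromal markers 7 reached 1 FPKM and all 7 were higher with the AclyE14-ASO, with summed levels over the 10 of 213 FPKM with the AclyE14-ASO and 49.1 FPKM with the Control-ASO. Only S100a8 of 8 neutrophil markers and 0 of 6 lymphocyte markers reached 1 FPKM, and Ly6g, Elane, Camp, S100a9, Cd3d and Cd3e were listed at 0 in both libraries. The part of the stromal signal in the values below was not tested. In bulk RNA, fewer cells of a type and less RNA per cell cannot be told apart.

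The sequences that matter most for reading these values are those that show which members can be told apart by their reads. Rps27, a zinc-binding protein of the small subunit, has 2 close relatives in the table. Over the first 60 coding bases, read from GENCODE M21 transcripts (GRCm38), capitals mark each base that differs from Rps27.
Rps27: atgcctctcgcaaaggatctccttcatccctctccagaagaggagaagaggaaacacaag
Rps27rt: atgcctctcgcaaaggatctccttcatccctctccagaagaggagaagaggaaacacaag
Rps27l: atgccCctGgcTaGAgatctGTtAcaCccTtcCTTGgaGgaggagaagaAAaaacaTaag
The coding sequences of Rps27 (chromosome 3, 90212522 to 90213651, minus strand) and Rps27rt (chromosome 9, 114982366 to 114982739, minus strand) were identical at 255 of 255 bases. Rps27l (chromosome 9, 66946086 to 66949516, plus strand) differed at 18 of the 60 bases shown and at 61 of the 255 coding bases, so reads over these bases tell it from Rps27.

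Windows around the annotated start of transcription show how the TOP tract looks in these genes. Each runs from 15 bases before to 15 bases after the start, on the transcript's strand of GRCm38.p6 as given by RefSeq, and capitals mark an unbroken pyrimidine tract that begins with a C at the start. The first 5 genes carry such a tract and the last, Rps27l, does not.
Rpl35: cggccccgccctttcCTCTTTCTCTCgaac
Rpl38: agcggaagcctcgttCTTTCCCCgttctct
Rplp2: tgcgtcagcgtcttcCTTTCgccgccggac
Rps18: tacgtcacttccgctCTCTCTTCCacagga
Rps27: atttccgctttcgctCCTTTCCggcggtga
Rps27l: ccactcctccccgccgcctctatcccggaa
The windows lie at chr2:39005117-39005146 (minus strand), chr11:114668565-114668594 (plus), chr7:141447636-141447665 (plus), chr17:33955651-33955680 (minus), chr3:90213634-90213663 (minus) and chr9:66946071-66946100 (plus), in that order.

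Most ribosomal protein mRNAs took a slightly larger share of the AclyE14-ASO library. Summed over the 85 genes there were 256022 counts with the AclyE14-ASO and 239561 with the Control-ASO, which is 2.01% and 1.69% of each library and a ratio of 1.19 (1.18 to 1.20). The mean over both libraries reached 1 FPKM for 76 members. Of these, 63 (82.9%) had a log2 ratio above 0, where 35.1% of the 8658 genes reaching that level did. The median log2 ratio of the members was 0.28, with quartiles of 0.08 and 0.41, while that of all genes was -0.13. Relative to the all-gene median, 71 of the 76 members were higher.

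The shift was small for each gene. At 1.5-fold or more, 2 of the 76 members were higher with the AclyE14-ASO and 1 was lower, against 7.03% and 8.48% of all genes, so changes of this size were not more frequent among the members. At a limit of 25% higher, and the inverse of that ratio for lower, 31 members were higher and 1 was lower, against 14.2% and 26.7% of all genes. At 2-fold, 0 were higher and 1 was lower, against 3.18% and 1.55%. The counting interval lay wholly above 1 for 52 members and wholly below 1 for 5, where it did so for 21.7% and 44.2% of all genes.

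**Figure D1:**
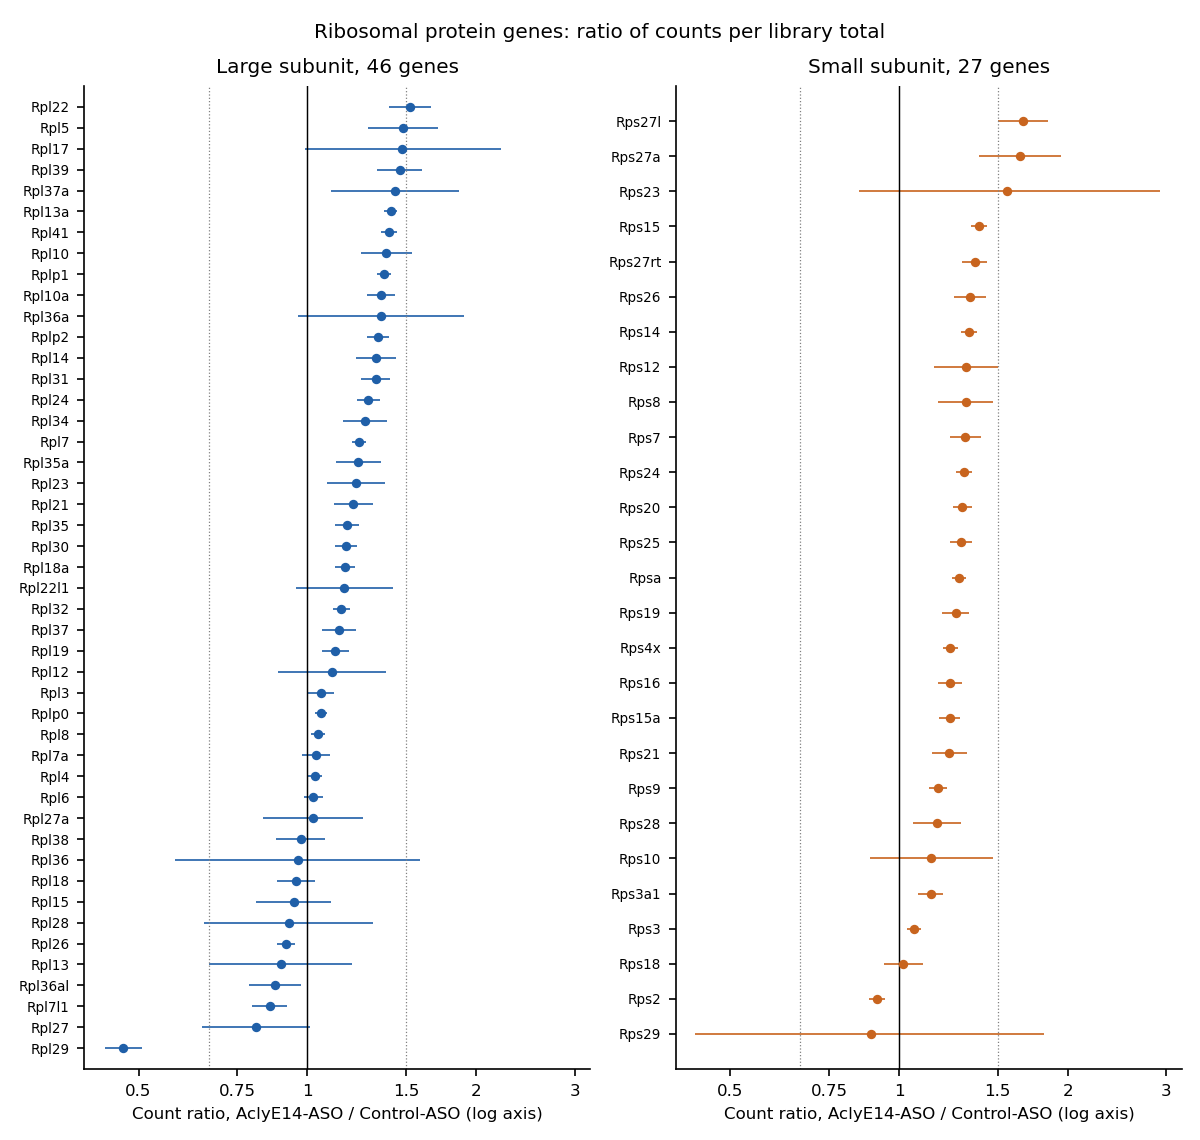
Count ratio per library total (AclyE14-ASO over Control-ASO, log axis) of the 46 large and 27 of the 30 small subunit genes whose mean reached 1 FPKM. Points are single-library ratios, bars exact 95% counting intervals, the solid line a ratio of 1 and the dotted lines 1.5-fold in either direction. Rpl29 lies alone at 0.470, and most other genes lie between 1 and 1.5.

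The log2 ratios of the members also lay closer together than those of other abundant genes. Among genes whose mean reached 100 FPKM, the 29 members had a median of 0.30 and an SD over genes of 0.17, and 93.1% lay above 0. All 458 genes at that level had a median of 0.03 and an SD of 0.50, and 52.6% lay above 0. At a mean over both libraries of 10 to 100 FPKM the medians were 0.29 for 32 members and -0.12 for all genes, and at a mean of 1 to 10 FPKM they were 0.09 for 15 members and -0.14 for all genes. Of the low group, 13 of 15 intervals included 1, so most of these genes are not resolved at this depth.

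Small subunit genes had the larger shift. Their median log2 ratio was 0.35 (quartiles 0.22 and 0.41, 30 genes), and 28 of 30 (93.3%) lay above 0. The large subunit had a median of 0.21 (quartiles 0.03 and 0.40, 46 genes), with 35 of 46 (76.1%) above 0. At the 25% limit, 17 of 30 small and 14 of 46 large subunit genes were higher. Summed counts of the small subunit were 118517 with the AclyE14-ASO and 107350 with the Control-ASO, a ratio of 1.23 (1.22 to 1.24). Those of the large subunit were 137505 with the AclyE14-ASO and 132211 with the Control-ASO, a ratio of 1.16 (1.15 to 1.17).

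Large over small subunit counts stood at 1.16 (1.15 to 1.17) with the AclyE14-ASO and 1.23 (1.22 to 1.24) with the Control-ASO. The quotient of these, which no scaling between libraries can change, was 0.942 (0.932 to 0.953). The medians differed by -0.13, large minus small, which is less than the SD over genes within either subunit (0.29 for the large and 0.19 for the small), and the 2 sets of ratios overlap. Genes are not replicates, so this difference was not tested.

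**Figure D2:**
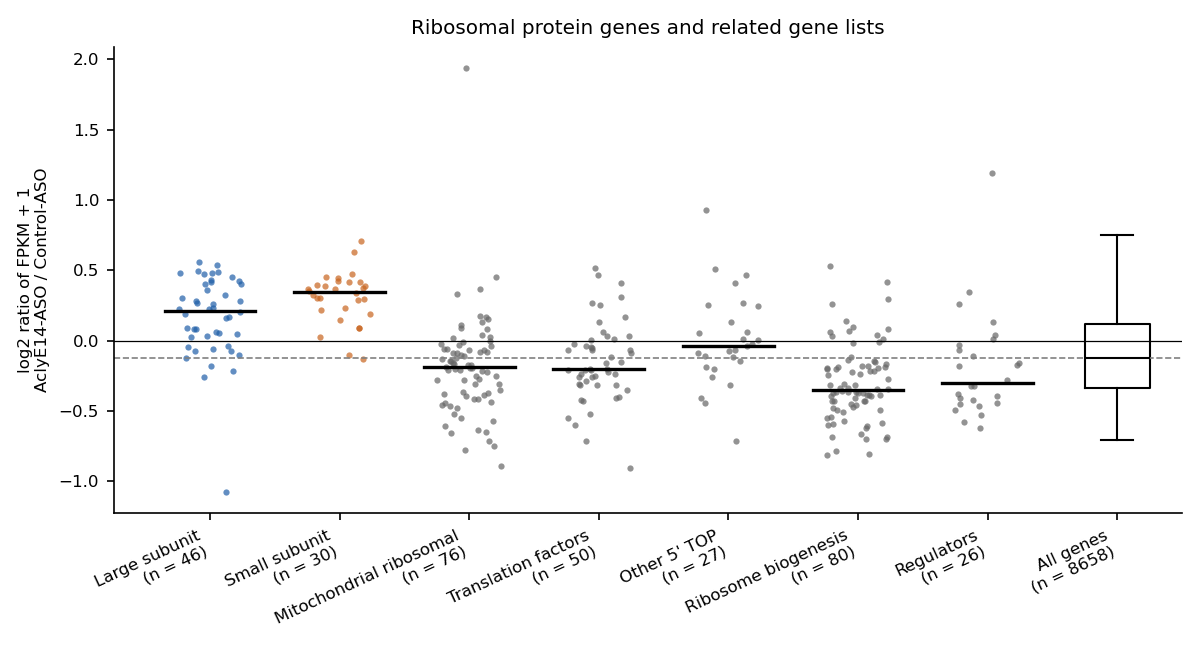
Log2 ratio after adding 1 FPKM (AclyE14-ASO library over the Control-ASO library) of each gene in the large and small subunits and in related lists, with the list median as a bar. The box shows the quartiles of all 8658 genes, its whiskers run from the 5th to the 95th percentile, and the dashed line is the all-gene median of -0.13. Medians lie at 0.21 and 0.35 for the subunits and below 0 for every other list shown, of which centring on the median gene, a shift of 0.13, would turn only the TOP list at -0.04.

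Among large subunit genes, Rpl29 stood far below the rest. It encodes a small, highly basic protein. Rpl29 (ENSMUSG00000048758, chromosome 9, 106429454 to 106431568, plus strand, GRCm38) had 958 counts (56.4 FPKM) in the AclyE14-ASO library and 2274 counts (120.0 FPKM) in the Control-ASO library. The log2 ratio was -1.08 and the count ratio 0.470 (0.435 to 0.507), the lowest of the 76 members. Its 6 matching pseudogenes held 83 counts with the AclyE14-ASO and 211 with the Control-ASO, and with them the ratio was 0.467. Reads of such copies are hard to tell from those of the gene, so their lower counts may not be a separate observation.

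The stalk proteins Rplp0, Rplp1 and Rplp2 recruit the translation factors that hydrolyse GTP on the ribosome. Rplp1, the member with the highest mean FPKM, had 11451 counts (1814 FPKM) with the AclyE14-ASO and 9318 counts (1324 FPKM) with the Control-ASO, a count ratio of 1.37 (1.33 to 1.41). Rplp2 had 3991 counts (111 FPKM) with the AclyE14-ASO and 3326 counts (82.9 FPKM) with the Control-ASO, a ratio of 1.34 (1.28 to 1.40). Rplp0, which anchors both on the ribosome, differed less, with 12633 counts with the AclyE14-ASO and 13328 with the Control-ASO and a ratio of 1.06 (1.03 to 1.08). With its pseudogene Gm8730, at 5629 counts with the AclyE14-ASO and 6385 with the Control-ASO, the ratio was 1.03 (1.01 to 1.05). The intervals of Rplp1 and Rplp2 overlap, and that of Rplp0 lies below both.

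Rpl22, an RNA-binding protein needed for mouse T cell development, had the largest log2 ratio of the large subunit, 0.56. It had 1204 counts (14.9 FPKM) with the AclyE14-ASO and 880 counts (9.75 FPKM) with the Control-ASO, a count ratio of 1.53 (1.40 to 1.67). Its paralog Rpl22l1, whose mRNA the Rpl22 protein is known to repress in mouse cells, had 208 counts with the AclyE14-ASO and 199 with the Control-ASO, a ratio of 1.17 (0.955 to 1.42). Its interval includes 1, and their coding sequences were 66.9% identical.

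Other large subunit genes at the upper end were Rpl39, Rpl13a, Rpl37a and Rpl41. Rpl39, which lines the tunnel through which the new protein leaves, had 1044 counts (50.8 FPKM) with the AclyE14-ASO and 796 counts (34.7 FPKM) with the Control-ASO, and a log2 ratio of 0.54. Its pseudogene Rpl39-ps held more counts than the gene, 1553 with the AclyE14-ASO and 1372 with the Control-ASO. With it the count ratio was 1.34 (1.26 to 1.41) and the log2 ratio 0.41. Rpl13a, which in myeloid cells exposed to interferon gamma is also known to leave the ribosome and silence inflammatory mRNAs, stood at 890.2 FPKM (11624 counts) with the AclyE14-ASO and 632 FPKM (9198 counts) with the Control-ASO, a count ratio of 1.41 (1.37 to 1.45). Rpl41, a very short peptide, had 8492 counts with the AclyE14-ASO and 6761 with the Control-ASO and a log2 ratio of 0.48. Rpl37a had only 135 counts with the AclyE14-ASO and 105 with the Control-ASO, a ratio of 1.43 (1.10 to 1.87).

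At the lower end, 11 of the 46 large subunit genes had log2 ratios below 0, and the interval lay below 1 for Rpl29, Rpl7l1, Rpl36al and Rpl26. Rpl26, which sits at the rim of the tunnel exit and is also known to bind the p53 mRNA, had 5550 counts (176 FPKM) with the AclyE14-ASO and 6754 counts (192 FPKM) with the Control-ASO, a ratio of 0.916 (0.884 to 0.949), and centring on the median gene brought its log2 ratio of -0.13 to 0.00. Rpl7l1 and Rpl36al are paralogs of Rpl7 and Rpl36a. Rpl7l1 had 1338 counts with the AclyE14-ASO and 1741 with the Control-ASO, a ratio of 0.857 (0.797 to 0.921), where Rpl7 had 9486 counts with the AclyE14-ASO and 8558 with the Control-ASO, a ratio of 1.24 (1.20 to 1.27). Rpl36al had 625 counts with the AclyE14-ASO and 796 with the Control-ASO, a ratio of 0.875 (0.787 to 0.973), and Rpl36a 80 counts with the AclyE14-ASO and 66 with the Control-ASO, a ratio of 1.35 (0.963 to 1.90). In both pairs the paralog stood lower than its partner in the ratio, though only in the Rpl7 pair do both intervals exclude 1.

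Rpl8 and Rpl3, abundant proteins near the peptidyl transferase centre, hardly differed. Rpl8 stood at 806 FPKM with the AclyE14-ASO and 771 FPKM with the Control-ASO, a log2 ratio of 0.06, and Rpl3 at 41.4 FPKM with the AclyE14-ASO and 39.1 with the Control-ASO, a log2 ratio of 0.08. Rpl10, which is added late as the large subunit matures, had 817 counts with the AclyE14-ASO and 658 with the Control-ASO and a log2 ratio of 0.43. The tissue-restricted copies were near absent. Rpl10l, the testis copy of Rpl10, was listed at 0 in both libraries, which allows up to 0.235 CPM with the AclyE14-ASO and 0.211 CPM with the Control-ASO. Rpl3l, the muscle copy of Rpl3, had 0 counts with the AclyE14-ASO and 7 with the Control-ASO, and Rpl39l, the testis copy of Rpl39, 9 counts with the AclyE14-ASO and 17 with the Control-ASO.

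**Figure D3:**
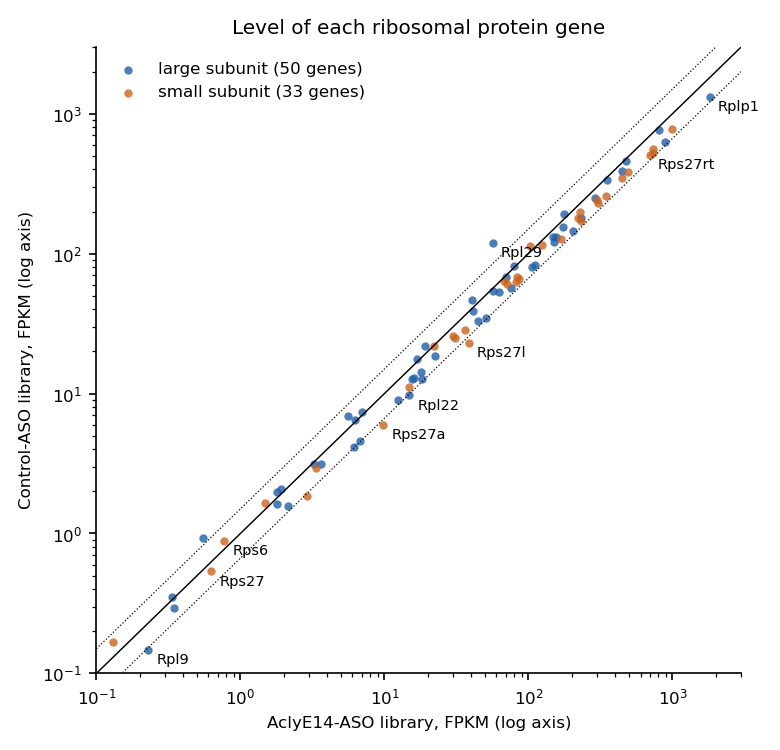
FPKM of each ribosomal protein gene in the AclyE14-ASO library (horizontal) and the Control-ASO library (vertical), both on log axes, for the 50 large and 33 small subunit genes above 0 in both. The solid line marks equal levels and the dotted lines 1.5-fold. Most points lie just below the solid line, Rpl29 lies well above it, and Rps27, Rps6 and Rpl9 lie below 1 FPKM.

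In the small subunit, Rps27l and Rps27a had the largest ratios and were the 2 members higher by 1.5-fold. Rps27l, the p53-induced paralog of Rps27 shown above, had 931 counts (38.4 FPKM) in the AclyE14-ASO library and 623 counts (23.1 FPKM) in the Control-ASO library. Its log2 ratio was 0.71 and its count ratio 1.67 (1.504 to 1.85). Rps27a (ENSMUSG00000020460, chromosome 11, 29545846 to 29548109, minus strand, GRCm38) is made as a fusion with ubiquitin, so that it supplies both. It had 346 counts (9.82 FPKM) with the AclyE14-ASO and 235 counts (5.98 FPKM) with the Control-ASO, a log2 ratio of 0.63 and a count ratio of 1.64 (1.39 to 1.95). The intervals of these 2 genes overlap each other and, for Rps27a, the 1.5-fold limit.

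Rps27 itself was listed at only 23 counts with the AclyE14-ASO and 22 with the Control-ASO, while the intronless Rps27rt had 3281 counts (695 FPKM) with the AclyE14-ASO and 2677 counts (509 FPKM) with the Control-ASO. Since both share every coding base, their reads cannot be told apart over the coding region. Their summed ratio was 1.36 (1.297 to 1.44), and Rps27rt alone gave 1.37 (1.298 to 1.44).

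Rps15 also stood at the upper end of the small subunit. Rps15, whose tail reaches toward the decoding site, stood at 729 FPKM (7785 counts) with the AclyE14-ASO and 526 FPKM (6255 counts) with the Control-ASO, a count ratio of 1.39 (1.34 to 1.43). Rps24, a gene mutated in Diamond-Blackfan anaemia in humans, was among the most abundant of the subunit by FPKM, at 733 FPKM with the AclyE14-ASO and 561 with the Control-ASO, and had a log2 ratio of 0.39.

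Among the small subunit genes above 5 FPKM with the lowest ratios were Rps2, Rps18, Rps3 and Rps3a1. Rps2 had 6331 counts (103 FPKM) with the AclyE14-ASO and 7726 counts (113 FPKM) with the Control-ASO, a ratio of 0.914 (0.884 to 0.945), the only interval of the subunit below 1, and centring brought its log2 ratio of -0.13 to -0.00. Rps3, which lies beside Rps2 where mRNA enters the ribosome and is also known as a partner of NF-kB, had 9956 counts with the AclyE14-ASO and 10440 with the Control-ASO, a ratio of 1.06 (1.03 to 1.09). Rps3a1 had a log2 ratio of 0.19. Rps18 had 1171 counts with the AclyE14-ASO and 1282 with the Control-ASO and a log2 ratio of 0.03. It overlaps Vps52 on the opposite strand, and the pair summed over the whole of both genes gave a ratio of 0.907 (0.845 to 0.974). Reads in the overlap were not counted apart, so this sum cannot show how far Vps52 affects Rps18. Strand use in counting is not stated, and the value of Rps18 is therefore uncertain.

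Genes grouped by the place of their proteins on the ribosome, and summed without pseudogenes, differed in their ratios. The stalk genes together had a ratio of 1.21 (1.18 to 1.23), from 28075 counts with the AclyE14-ASO and 25972 with the Control-ASO. Rpl4, Rpl17 and Rpl39, which line the exit tunnel, summed to 1.07 (1.04 to 1.10). Rpl39 alone gave 1.46 (1.33 to 1.61), and 1.34 (1.26 to 1.41) with its pseudogene. Around the tunnel exit, Rpl19, Rpl23a, Rpl26, Rpl31 and Rpl35 summed to 1.07 (1.04 to 1.09), with Rpl26 below 1 and Rpl31 at 1.33. Rpl23a hardly entered this sum, with 6 counts with the AclyE14-ASO and 7 with the Control-ASO. Its pseudogene, left out here, held 3281 counts with the AclyE14-ASO and 3260 with the Control-ASO. In the small subunit, the mRNA entry proteins Rps2 and Rps3 summed to 16287 counts with the AclyE14-ASO and 18166 with the Control-ASO, a ratio of 0.9995 (0.979 to 1.02). The entry sum joins genes on opposite sides of 1, Rps2 at 0.914 and Rps3 at 1.06. The mRNA exit proteins Rps14, Rps26 and Rps28 summed to 10743 counts with the AclyE14-ASO and 9068 with the Control-ASO, a ratio of 1.32 (1.28 to 1.36). The entry and exit intervals do not overlap, but they cover counting error only. These groups of 2 to 5 genes were not among the planned lists, and no difference between places was tested.

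Pseudogenes carried much of the signal of some members. Matching by sequence (at least 90% identity over at least 70% of the pseudogene) tied 61 pseudogenes in the table to 37 members. Their summed counts were 49815 with the AclyE14-ASO and 47845 with the Control-ASO, a ratio of 1.16 (1.15 to 1.18), and members and pseudogenes together had a ratio of 1.19 (1.18 to 1.19). For 11 members the pseudogenes held more counts than the gene. How reads that fit a gene and its copies were shared out is not stated in the labels.

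Rpl5 and Rpl11, which carry the smallest ribosomal RNA into the large subunit and are known to hold back the p53 inhibitor Mdm2, show this best. Rpl5 had 453 counts with the AclyE14-ASO and 341 with the Control-ASO, and its pseudogene Gm15500 had 7791 with the AclyE14-ASO and 6839 with the Control-ASO. The ratio was 1.48 (1.28 to 1.71) for the gene and 1.28 (1.24 to 1.32) with the pseudogene. Rpl11 had only 20 counts with the AclyE14-ASO and 19 with the Control-ASO, while its pseudogenes had 1581 with the AclyE14-ASO and 1554 with the Control-ASO, and the joint ratio was 1.13 (1.06 to 1.22).

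Rpl27 changed sides. The gene had 141 counts with the AclyE14-ASO and 194 with the Control-ASO, a ratio of 0.810 (0.648 to 1.01), and with its pseudogene, at 3147 counts with the AclyE14-ASO and 3176 with the Control-ASO, the ratio was 1.09 (1.04 to 1.14). Rpl9 had 32 counts with the AclyE14-ASO and 23 with the Control-ASO, where Rpl9-ps6, identical at 578 of 579 coding bases, had 2633 with the AclyE14-ASO and 2600 with the Control-ASO. Rpl12, in the base of the stalk, had 164 counts with the AclyE14-ASO and 165 with the Control-ASO, where Gm10275 had 6785 with the AclyE14-ASO and 5735 with the Control-ASO. For such genes the family sum is the measured quantity, not the gene.

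**Figure D4:**
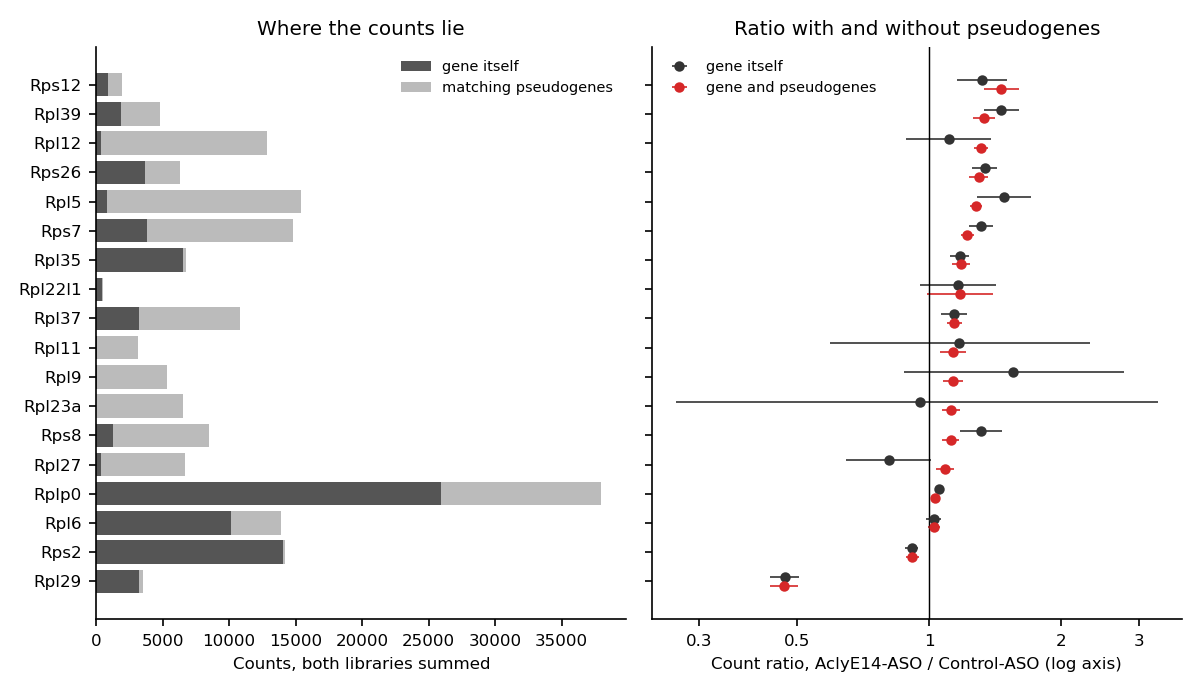
Left, counts of the 18 members with at least 100 pseudogene counts, and of their matching pseudogenes, summed over both libraries. Right, the count ratio (AclyE14-ASO over Control-ASO, log axis) of each gene alone and with its pseudogenes, with exact 95% counting intervals. For Rpl5, Rpl9, Rpl11, Rpl12, Rpl23a and Rpl27 nearly all counts lie in pseudogenes, and Rpl29 stays near 0.47 either way.

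In all, 9 members had a mean below 1 FPKM and are described by counts only. They are Rpl3l, Rpl10l and Rpl39l, the pseudogene-rich Rpl9, Rpl11 and Rpl23a, Rps27 with its identical copy, and Rps6 and Rps13. Rps6, the substrate of the S6 kinases downstream of mTOR, had 24 counts with the AclyE14-ASO and 31 with the Control-ASO, a ratio of 0.863 (0.485 to 1.52). Rps13 had 14 counts with the AclyE14-ASO and 20 with the Control-ASO. Neither had counts in a matching pseudogene, and at these counts a difference of the median member's size was not detectable. The levels themselves depend on the authors' gene lengths, which were 0.134 to 3.54 times the exonic length in GENCODE M21 (median 1.37), so the order of members by FPKM is approximate. A length cancels in each gene's ratio between libraries.

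The start sequences were set beside the ratios. Of the 65 members found in RefSeq's promoter table, 14 (21.5%) had a C at the annotated start followed by at least 4 pyrimidines, against 813 of 27025 genes (3.01%). Members at 1 FPKM or more with the tract had a median log2 ratio of 0.26 (12 genes), and those without it 0.30 (45 genes). The letters CTTTCC, searched within 50 bases on either side of the start, occurred on the transcript's strand in 21 of 65 members (32.3%) and 5.43% of all genes, and on the other strand in 2 members (3.08%) and 5.12% of genes. Members with CTTTCC on the transcript's strand had a median of 0.16 (19 genes) and those without it 0.30 (38 genes). A run found in this window does not show that the mRNA starts there.

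Some ribosomal proteins have genes with other names. Fau, fused to a ubiquitin-like protein, had 3786 counts with the AclyE14-ASO and 3497 with the Control-ASO, a log2 ratio of 0.27. Rack1, a signalling scaffold on the small subunit, had 10635 counts with the AclyE14-ASO and 13634 with the Control-ASO and a log2 ratio of -0.20.

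Genes that build the ribosome stood on the other side of 0. Of 80 ribosome biogenesis genes at 1 FPKM or more, 44 were lower with the AclyE14-ASO and 2 higher at the 25% limit, against 26.7% and 14.2% of all genes. At 1.5-fold 13 were lower and 0 higher, against 8.48% and 7.03%. Their median log2 ratio was -0.35, and 12 (15%) lay above 0, against 35.1% of all genes. Rrp9, which works with the U3 RNA in cleaving the ribosomal RNA precursor, had 169 counts with the AclyE14-ASO and 373 with the Control-ASO, a log2 ratio of -0.81. Rrp1, the most abundant, stood at 52.6 FPKM with the AclyE14-ASO and 68.2 with the Control-ASO, a log2 ratio of -0.37. Ncl, the nucleolar protein nucleolin, had 1545 counts with the AclyE14-ASO and 2491 with the Control-ASO and a log2 ratio of -0.49, and Midn, the list's highest ratio, 186 counts with the AclyE14-ASO and 109 with the Control-ASO and 0.53. Midn encodes midnolin, which is known for guiding nuclear proteins to the proteasome rather than for ribosome assembly.

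Mitochondrial ribosomal protein genes lay lower than the cytosolic ones. Among the 76 that reached 1 FPKM, 1 was higher and 8 lower at the 1.5-fold limit, against 7.03% and 8.48% of all genes. Their median was -0.19, against -0.13 for all genes, and 14 (18.4%) lay above 0, against 35.1%. Mrpl32, the most abundant, stood at 27.4 FPKM with the AclyE14-ASO and 43.0 FPKM with the Control-ASO, a log2 ratio of -0.63. Mrpl42 had 139 counts with the AclyE14-ASO and 295 with the Control-ASO and a log2 ratio of -0.89, and Mrpl53 116 counts with the AclyE14-ASO and 19 with the Control-ASO and a log2 ratio of 1.94. Transcripts of the mitochondrial genome took 1.11% of counts with the AclyE14-ASO and 1.40% with the Control-ASO.

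Genes of translation factors had a median slightly below that of all genes. The list holds mainly initiation and elongation factors, with release and recycling factors, poly(A)-binding proteins and the kinase Eef2k. Among the 50 that reached 1 FPKM, 0 were higher and 3 lower at 1.5-fold, against 7.03% and 8.48% of all genes. The median was -0.20, against -0.13 for all genes, and 13 (26%) lay above 0, against 35.1%. The elongation factor Eef1a1, itself a TOP mRNA, stood at 991 FPKM with the AclyE14-ASO and 1016 FPKM with the Control-ASO, a log2 ratio of -0.04. Eif3k stood at 264 FPKM with the AclyE14-ASO and 185 with the Control-ASO, a log2 ratio of 0.51, and Eif1b at 24.97 FPKM with the AclyE14-ASO and 47.6 with the Control-ASO, a log2 ratio of -0.90. Of 27 non-ribosomal genes known for a TOP tract, which share members with the last list, 1 was higher and 1 lower at 1.5-fold, against 7.03% and 8.48% of all genes, with a median of -0.04, which centring turns above 0. These were Nap1l1, a histone chaperone, with 290 counts with the AclyE14-ASO and 141 with the Control-ASO, and the initiation factor Eif4a2, with 390 counts with the AclyE14-ASO and 857 with the Control-ASO.

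Among 26 regulators of ribosomal protein synthesis that reached 1 FPKM, 1 was higher and 1 lower at 1.5-fold, against 7.03% and 8.48% of all genes, and the median was -0.30. The Myc antagonist Mxi1 had 638 counts with the AclyE14-ASO and 267 with the Control-ASO, and its relative Mxd1 had 1276 with the AclyE14-ASO and 2252 with the Control-ASO. Max, the partner of both, stood at 130.3 FPKM with the AclyE14-ASO and 136 with the Control-ASO, a log2 ratio of -0.06. Myc itself, below 1 FPKM in both libraries, had 104 counts with the AclyE14-ASO and 73 with the Control-ASO, a ratio of 1.59 (1.17 to 2.17). Larp1, which binds TOP tracts, had 6010 counts with the AclyE14-ASO and 5571 with the Control-ASO and a log2 ratio of 0.26, and Eif4ebp1, the mTOR-controlled repressor of cap-dependent initiation, 902 counts with the AclyE14-ASO and 1420 with the Control-ASO and -0.49.

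**Figure D5:**
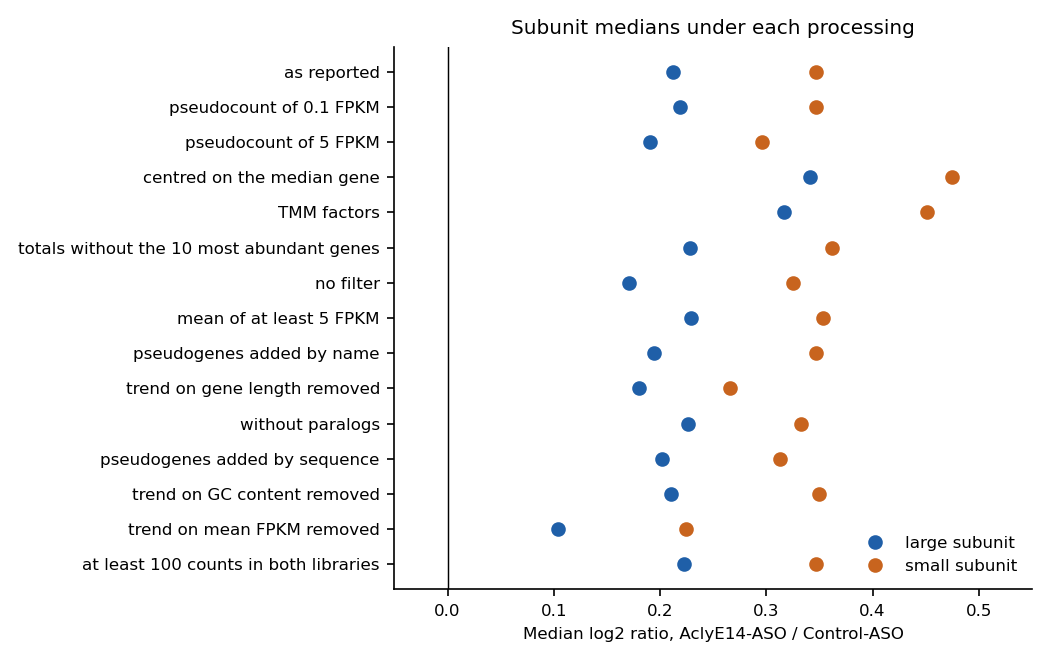
Median log2 ratio (AclyE14-ASO over Control-ASO) of the large and small subunit genes as reported and under 14 other ways of processing the values. The large subunit lies at 0.10 to 0.34 and the small at 0.22 to 0.48, and the small subunit is the higher of the pair in each of these.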

How the data were processed

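The deposited table gives raw gene counts and FPKM values made by the authors for both libraries, per the file headers. The submitters' processing notes list HISAT2, StringTie 1.3.0, edgeR and mm10 without roles. The labels' protocols name a stranded and an mRNA capture kit, and the use of strand in counting is not stated. Each count was worth 1.1148 to 1.1149 times as much FPKM in the AclyE14-ASO library as in the other, the inverse of their ratio of count totals, so the deposited FPKM carries no further scaling.

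Symbols came from GENCODE M21 (GRCm38), matched for 34344 identifiers. Computed from the deposited values were log2 ratios of FPKM + 1 for genes whose mean reached 1 FPKM, size calls at 1.5-fold, and count ratios with exact conditional (Clopper-Pearson) 95% intervals. Without molecular identifiers reads may be copies of 1 molecule, so intervals and limits for 0 counts cover counting error only. No test was run. Pseudogenes were matched with BLAST 2.17.0. Python 3.11.15, NumPy 2.4.6, pandas 2.3.3, SciPy 1.17.1, statsmodels 0.14.6 and, for TMM factors, edgeR 4.0.16 in R 4.3.3 were used, and the calculations were tested on simulated counts.

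Members, lists and alternatives were chosen with earlier results of these data known. The text names, among members of at least 5 FPKM, the 5 largest and 5 smallest log2 ratios and the 3 highest levels of each subunit, every member past 1.5-fold, the stalk genes, the paralogs, and each list's extremes and most abundant gene. Others, such as Rpl5, Rpl9, Rpl11, Rpl12, Rps6, Rps13, Ncl, Myc, Larp1 and Eif4ebp1, were named after their values were seen. A few genes that this rule names are not reported here.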

Additional observations from a re-analysis of the deposited data

How the results depend on the processing

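No paired analysis was possible because each group has 1 library, and for the same reason no replicate could be left out. The 2 members higher by 1.5-fold became 4 with a pseudocount of 0.1 FPKM, 1 with a pseudocount of 5 FPKM, 10 with ratios centred on the median gene, 7 with TMM factors, 31 at a limit of 25% higher, 0 at 2-fold, 1 without paralogs and 3 without the trend on mean FPKM. Of all genes, 9.09% were higher by 1.5-fold with a pseudocount of 0.1 FPKM, 3.31% with 5 FPKM and 8.79% with TMM factors. Rpl29 was the 1 lower member in all 16 alternatives. Centring, which adds 0.13 to every log2 ratio, gave medians of 0.41 for all members, 0.34 for the large and 0.48 for the small subunit and a summed count ratio of 1.303. With it, 9.83% of all genes were higher and 4.69% lower by 1.5-fold. TMM factors gave medians of 0.32 and 0.45 for the subunits, large first, and a summed ratio of 1.28, and totals without the 10 most abundant genes a summed ratio of 1.20. Removing the trend on mean FPKM, chosen after seeing the data, gave medians of 0.10 and 0.22, large first. The large minus small median stayed between -0.15 and -0.09 in 14 alternatives. The causes were not tested. Among named genes, Rpl26 came to 0.00 under centring, Rpl27 to 0.12 with pseudogenes, and Rplp0 to -0.08, Rpl8 to -0.14 and Rps3 to -0.00 without the mean FPKM trend. At this depth 19 of 76 members had intervals that include 1.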

Other observations

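Tpt1, a TOP mRNA outside the ribosome and chosen after its values were seen, had 3288 counts with the AclyE14-ASO and 2557 with the Control-ASO, a ratio of 1.43 (1.36 to 1.51). Its pseudogene Tpt1-ps3 had 36527 counts with the AclyE14-ASO and 27020 with the Control-ASO, a ratio of 1.51 (1.48 to 1.53). Together they held more counts than any single ribosomal protein gene. Rps12-ps3, a copy of Rps12, had 605 counts with the AclyE14-ASO and 420 with the Control-ASO, a ratio of 1.61 (1.42 to 1.82), where Rps12 itself had 498 with the AclyE14-ASO and 421 with the Control-ASO, a ratio of 1.32 (1.16 to 1.51), and these intervals overlap.

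Overlap with other genes touched 12 members on the opposite strand and 2 on the same strand. Rpl35 had 3346 counts with the AclyE14-ASO and 3173 with the Control-ASO, a ratio of 1.18 (1.12 to 1.23), and summed with Arpc5l on the opposite strand, at 438 counts with the AclyE14-ASO and 766 with the Control-ASO, the ratio was 1.07 (1.02 to 1.12). Rpl24 summed with Gm28037 on its own strand had a ratio of 1.29 (1.23 to 1.35), against 1.28 for Rpl24 alone. Both sums take in the whole of each gene, so they cannot show how far the neighbour affects Rpl35 or Rpl24.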
